A study of Mus musculus with 6 samples.

Results

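Integrin and laminin chains were examined in lung endothelial cells (ECs) 7 days after pneumonectomy (PNX), an operation that takes out 1 lung and is followed by growth of the other. The chains were chosen by gene symbol alone, as every symbol of the form Itga, Itgb or Lama, Lamb and Lamc with its number or letter, and 38 of 24063 symbols in the count tables were found. They comprise 26 integrin subunits (18 alpha and 8 beta), 11 laminin chains (alpha, beta and gamma) and Itgbl1, an integrin beta-like protein that is not a receptor subunit. Of the integrin subunits, 7 belong to the receptors of leukocytes and 19 to receptors for extracellular matrix. All 38 passed the filter on low counts, within 16598 genes tested.

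The sham group held male C57BL6 mice whose chest was opened and both lungs left in place, and the PNX group male C57BL6 mice 7 days after left unilateral PNX, and neither group is labelled with a transgene or a further agent. In both groups ECs were isolated from the lung with magnetic beads against CD31. The methods of the study give 3 libraries per group, each from ECs pooled from 2 mice. The labels give an age of 8 weeks, whereas the methods of the study give an older age at surgery. CD31 beads also bind platelets and some leukocytes, and bulk RNA holds whatever cells the beads kept.

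Total counts ranged from 29526989 to 81282871 per library, and the 38 chains took 0.421 to 0.494% of them. In both groups the titles of replicates 1 and 2 carry a re-used tag (the earlier deposit), which replicate 3 lacks (the later deposit). Replicates 1 and 2 of a group differed by little more than counting noise, with a chi-square per degree of freedom of 1.75 in sham and 1.57 in PNX, against 67.9 to 86.4 for pairs with replicate 3. They were therefore summed to 1 sample, so that n = 2 samples in each group, and the p-values measure only the spread between these samples. Whether replicates 1 and 2 came from separate pools of mice was not tested. Replicate 3 stood apart in both groups, so values within the deposits are given beside the main results. All 12 endothelial markers were detected in every library, with summed levels of 11881 to 14517 counts per 1000000 (CPM) in sham and 10458 to 11761 in PNX. Pecam1, which encodes CD31, lay between 2038 and 2494 CPM in sham and between 2106 and 2479 in PNX. Markers of other cells were present too, with 2601 to 6067 CPM in sham and 1196 to 4473 in PNX for 8 alveolar type 1 markers, and 1122 to 2261 and 1221 to 1968 for 8 pan-leukocyte markers. Sums were 5524 to 6002 CPM in sham and 2118 to 3639 in PNX for 9 alveolar type 2 markers. They were 2602 to 4586 and 1232 to 1307 CPM for 9 airway markers, and 3387 to 3460 and 4669 to 4992 CPM for 12 fibroblast markers. For 13 macrophage and monocyte markers they were 2433 to 4545 and 3269 to 4384 CPM. These markers were also detected in every library, so detection alone does not show how pure the ECs were.

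Integrins are cell surface receptors built of an alpha and a beta subunit, and the alpha subunit largely sets what is bound. Beta1 pairs with most matrix-binding alpha subunits, beta2 only with the alpha subunits of leukocytes (Itgal, Itgam, Itgax and Itgad), and alphav with several beta subunits to bind RGD motifs in proteins such as fibronectin. Laminins are trimers of an alpha, a beta and a gamma chain that assemble into the basement membrane, on which ECs and epithelium rest. In vessels the alpha chains are mostly Lama4 and Lama5 with Lamb1 or Lamb2 and Lamc1, whereas Lama3 and Lamb3 belong to the laminin of epithelial basement membranes, and Lama1 is known mainly from embryonic and epithelial basement membranes.

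Among these 38 chains, Lama1 rose and Itgad fell after PNX in the edgeR fit that compares the groups within each deposit, and no chain passed in the fit that does not. With 4 samples and no block, 0 of 38 chains passed the thresholds of the study (adjusted p under 0.01, log2 fold change over 1 in size) in edgeR's quasi-likelihood test, as did 0% of all genes tested. In that fit 6 of the chains had an unadjusted p under 0.05, all genes together had a lowest adjusted p of 0.072, limma-voom on the same samples called 0 chains and DESeq2 called 1 (Lama1, background 3.43%). With 2 against 2 samples an exact permutation test cannot go below a two-sided p of 0.333. With the deposit as a replicate block, edgeR called 1 chain higher (Lama1, background 3.89% of genes tested) and 1 lower (Itgad, background 1.23%). With the 6 libraries as separate replicates, edgeR called 0 chains (background 2.51%; 16 chains had an unadjusted p under 0.05) and DESeq2 called 1 (Lama1, background 5.41%).

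At an adjusted p under 0.05 with no minimum fold change, the blocked fit gave 10 chains higher after PNX, against 11.5% of genes tested, and 6 lower, against 10.1%. The 10 were the leukocyte subunit Itgam, the matrix subunits Itga5, Itga7, Itgav, Itgb4 and Itgb8, and the laminins Lama1, Lamb2, Lamc1 and Lamc3. The 6 were the leukocyte subunits Itgad and Itgal, the matrix subunits Itga1, Itga4 and Itga8, and the laminin Lama3. The same threshold with 6 libraries and no block gave 7 chains, against 13.2% of genes tested, namely Itga5, Itgav, Lama1, Lama4, Lamb1 and Lamc1 higher and Itga1 lower. Of these 7, Lama4 and Lamb1 were not among the 16 of the blocked fit. This wider threshold is named wherever it is used below, and the blocked fit has 1 residual degree of freedom.

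**Figure D1:**
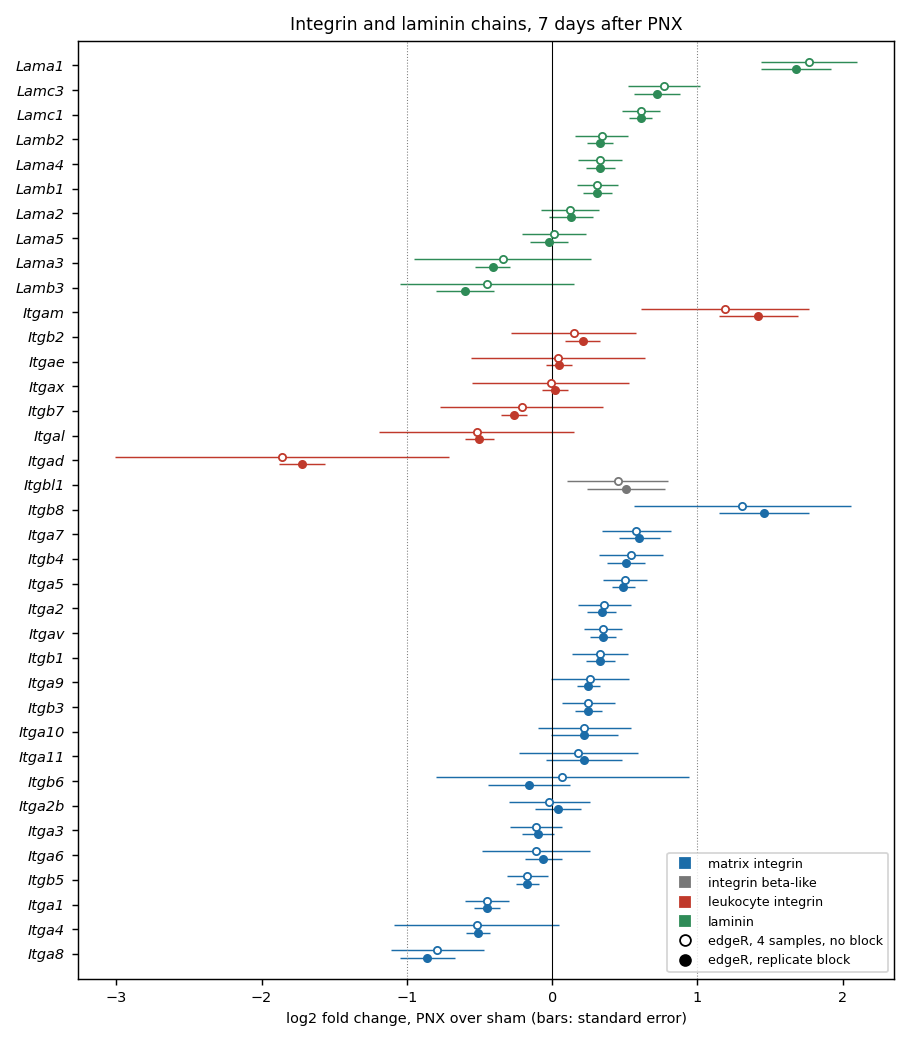
Log2 fold change of PNX over sham (horizontal axis) for the chains described singly, with the edgeR fit of 4 samples without block as open points and with the replicate block as filled points. Bars are standard errors and dotted lines mark a log2 fold change of 1 in either direction. Lama1 lies farthest to the right in the fit without block, at 1.77, and Itgad farthest to the left, at -1.86, with bars much shorter under the block for the leukocyte subunits.

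By library, 14 of 38 chains had all 3 PNX libraries above all 3 sham libraries (background 18.8% of genes tested) and 3 had all 3 below (background 17.9%). The 14 were Itgam, Itga2, Itga5, Itga7, Itgav, Itgb1, Itgb4, Itgbl1, Lama1, Lama4, Lamb1, Lamb2, Lamc1 and Lamc3, and the 3 were Itga1, Itga8 and Itgb5. Of the 38 chains, 20 were higher after PNX in both deposits (background 36%), 9 were lower in both (background 39.3%) and 9 went opposite ways. The median log2 fold change in the fit without block was 0.31 for the 11 laminins, 0.22 for the 19 matrix subunits and -0.01 for the 7 leukocyte subunits, beside -0.014 for all genes tested. These medians are descriptions without a test. Within the earlier deposit they were 0.43, 0.25 and 0.07, and within the later deposit 0.17, 0.19 and -0.07.

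**Figure D2:**
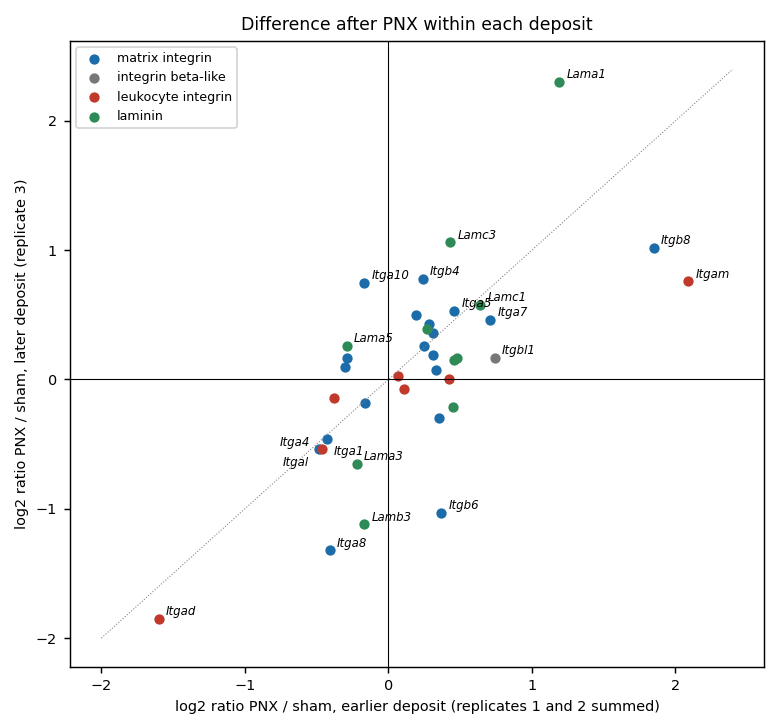
Log2 ratio of PNX over sham within the earlier deposit (horizontal axis) and within the later deposit (vertical axis), 1 point per chain, with the dotted diagonal marking equal values. Lama1 (1.19 and 2.30) and Itgad (-1.60 and -1.85) lie far from 0 on both axes, whereas Itgb6 (0.37 and -1.03) and Itga10 (-0.17 and 0.75) lie in opposite quadrants.

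Among the laminins, Lama1 passed the thresholds in the blocked fit. It was at 4.69, 4.90 and 3.83 CPM in sham replicates 1, 2 and 3 and at 10.8, 11.6 and 18.5 CPM in the PNX replicates. The groups did not overlap, and the PNX library of the later deposit was the highest. The samples averaged 4.32 ± 0.745 CPM in sham and 14.9 ± 5.41 in PNX (SD, n = 2 samples each). The log2 fold change was 1.68 (SE 0.24, edgeR adjusted p = 0.00352) with the replicate block and 1.77 (SE 0.33, edgeR adjusted p = 0.137) without it. Lama1 lies at chr17:67697259-67822647 on the plus strand of GRCm38, where it overlaps no other annotated gene. Its call was lost without PNX replicate 1 (edgeR adjusted p = 0.0168 with the block) and with DESeq2 size factors under the block. In bulk RNA, more cells of a type and more RNA per cell cannot be told apart, and this holds for every chain below.

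Lamc1, the gamma chain common to most laminins, was at 153, 153 and 169 CPM in the sham replicates and at 242, 243 and 248 CPM in the PNX replicates. Every PNX library stood clear of every sham library, and the deposits barely differed. The earlier deposit gave a log2 ratio of 0.64 and the later one 0.58. The fit gave a log2 fold change of 0.61, with an SE of 0.13 and an edgeR adjusted p of 0.176 without the block, an adjusted p of 0.00314 with it and an adjusted p of 0.00411 with 6 libraries. It stayed under the minimum fold change in each fit. Lamc1 lies at chr1:153218922-153332786 on the minus strand.

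Lamc3, a minor gamma chain, was at 7.80, 7.90 and 7.90 CPM in sham and at 10.5, 11.1 and 16.2 CPM in PNX, with no overlap and the highest value again in the later deposit. Its log2 fold change was 0.72 (SE 0.16, edgeR adjusted p = 0.0203) with the block.

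Lamb2, the most abundant beta chain per length, was at 149, 149 and 176 CPM in sham and at 182, 183 and 226 CPM in PNX, without overlap. The log2 fold change with the block was 0.33 (SE 0.09, edgeR adjusted p = 0.0345), within the wider threshold only. DESeq2 with the block gave an adjusted p of 0.0509 for Lamb2. Lamb1, the other vascular beta chain, had log2 ratios of 0.46 (earlier) and 0.15 (later) and an edgeR adjusted p of 0.0612 with the block and 0.0449 with 6 libraries. Lamb3, the epithelial beta chain, was at 63.6, 63.3 and 38.3 CPM in sham and at 57.7, 57.6 and 17.3 CPM in PNX. Its PNX libraries overlapped the sham range, and the log2 fold change of -0.60 (SE 0.20) with the block had an edgeR adjusted p of 0.0686. DESeq2 with the block gave an adjusted p of 0.015 for Lamb3.

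Lama5, the most abundant alpha chain per length in sham, was at 205, 207 and 215 CPM in sham and at 174, 170 and 252 CPM in PNX. The deposits disagreed in direction, since its log2 ratio was -0.29 in the earlier one and 0.26 in the later one. The fitted log2 fold change was 0.01 (SE 0.22) without and -0.02 (SE 0.13) with the block. Lama4, the other endothelial alpha chain, was higher in every PNX library than in any sham library, with log2 ratios of 0.48 and 0.17, and its edgeR adjusted p was 0.053 with the block and 0.0426 with 6 libraries. Lama2, known from muscle and nerve basement membranes, and Lama3 had blocked log2 fold changes of 0.13 (SE 0.15) and -0.41 (SE 0.12), with log2 ratios in the deposits of 0.45 and -0.21 for Lama2 and of -0.22 and -0.65 for Lama3. Lama3 lay within the wider threshold (edgeR adjusted p = 0.0478), which it missed in each blocked fit that left out 1 library (0.0512 to 0.0888) and in DESeq2 with the block (adjusted p = 0.0949).

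Levels of chains were also set side by side per length, in transcripts per 1000000 (TPM). The laminin alpha chains summed to 103 TPM in each sham library and to 112, 112 and 117 TPM in the PNX libraries. The beta chains summed to 127, 129 and 134 TPM in sham and to 153, 154 and 156 in PNX. In both classes every PNX library lay above every sham library, and the beta chains had the higher sum in every library.

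Lama1 made up 1.21, 1.27 and 0.974% of the alpha chain TPM in sham and 2.50, 2.69 and 4.21% in PNX, so it stayed a minor chain in both groups. Lama4 and Lama5 together made up most of it. Lama5 took 45.0 ± 0.831% in sham and 40.6 ± 10.2% in PNX (SD, n = 2 samples), and the difference after PNX was -11.11 percentage points in the earlier deposit and 2.16 points in the later one. Lamb3 took 27.2, 26.7 and 16.2% of the beta chain TPM in sham and 20.7, 20.5 and 6.71% in PNX. That share was lower after PNX in both deposits. These shares sum the TPM of all transcripts of a gene. Lamb3 has 2 with nearly equal counts (2560 and 2570 in sham replicate 1), so shared reads may have been counted on both. Its shares are then too high, and they differ in base from the beta sums above, which take 1 transcript per gene. On that base Lamb3 was at 19.9, 19.8 and 11.8 TPM in sham and at 17.6, 17.6 and 5.41 TPM in PNX. Each alpha chain has 1 transcript. Lamb3 and Lama3 moved with the alveolar type 1 markers across deposits, whose summed CPM was 5990, 6067 and 2601 in sham and 4443, 4473 and 1196 in PNX, and the part of such cells in these shares was not tested.

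**Figure D3:**
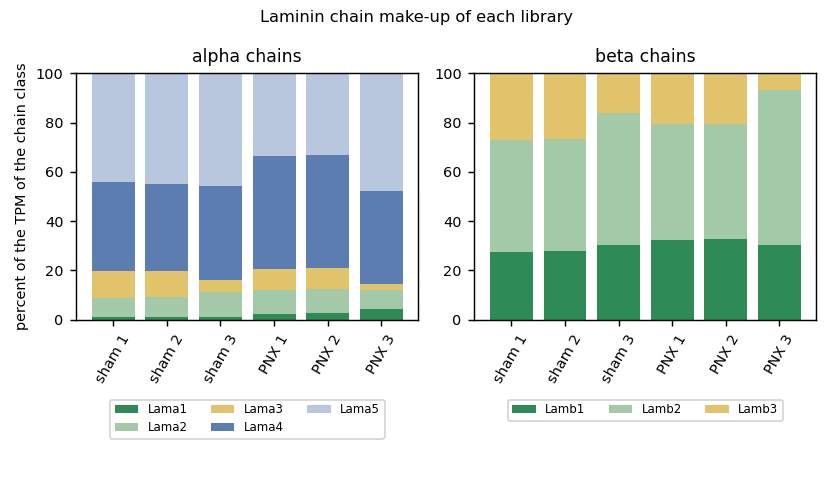
Percent of the TPM of the alpha and beta laminin chains taken by each chain (vertical axis) in each of the 6 libraries (horizontal axis). The TPM of all transcripts of a gene is summed. Lamb3 has 2, and its band is too thick where shared reads were counted on both. Lama1, the lowest band of the alpha panel, is thicker in the 3 PNX libraries (2.50 to 4.21%) than in the 3 sham libraries (0.974 to 1.27%), and the Lamb3 band is thinner in replicate 3 of both groups.

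Per length, Itgb1, the shared partner of most alpha subunits, had the highest level of the matrix subunits in sham (mean 403 TPM). It was at 735, 729 and 611 CPM in sham and at 916, 929 and 768 CPM in PNX, so the groups did not overlap. The earlier deposit gave a log2 ratio of 0.31 and the later one 0.36, and the blocked log2 fold change of 0.33 (SE 0.10) had an edgeR adjusted p of 0.0605. DESeq2 with the block gave an adjusted p of 0.0352 for Itgb1. The 12 alpha subunits that can pair with beta1 (Itga1 to Itga11 and Itgav) summed to 587, 585 and 504 TPM in sham and to 512, 510 and 465 in PNX. Divided by the TPM of Itgb1, the sum was 1.32, 1.33 and 1.39 in sham and 0.947, 0.929 and 1.00 in PNX. Every PNX library thus had fewer beta1-pairing alpha transcripts per Itgb1 transcript than every sham library. Some of these alpha subunits also pair with other beta subunits, and the TPM of the transcript with the highest total count was used for each gene, because reads shared by transcripts of a gene may have been counted on each.

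Itga1, a receptor subunit for collagen and laminin that is abundant on capillary ECs, was at 273, 275 and 253 CPM in sham and at 208, 205 and 181 CPM in PNX. Every PNX library lay below every sham library, and the log2 ratios in the deposits were nearly equal, at -0.43 and -0.46. The log2 fold change was -0.45 (SE 0.09, edgeR adjusted p = 0.0111) with the block, -0.45 (SE 0.15, edgeR adjusted p = 0.33) without it and -0.43 (edgeR adjusted p = 0.0217) with 6 libraries. The other collagen receptor subunits were less abundant, and Itga2, Itga10 and Itga11 had blocked log2 fold changes of 0.34, 0.22 and 0.22 with edgeR adjusted p of 0.0535, 0.531 and 0.595. Itga10 went opposite ways in the deposits, at -0.17 and 0.75.

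Itga5, the subunit that binds fibronectin with beta1, went the other way, at 76.8, 79.5 and 88.1 CPM in sham and at 109, 111 and 125 CPM in PNX. The groups did not overlap and the deposits gave log2 ratios of 0.46 and 0.53. The log2 fold change was 0.49 (SE 0.08, edgeR adjusted p = 0.00554) with the block, 0.50 (SE 0.15, edgeR adjusted p = 0.28) without it and 0.49 (edgeR adjusted p = 0.0184) with 6 libraries. Of the TPM of the 12 alpha subunits, Itga5 took 7.59, 7.87 and 9.99% in sham and 12, 12.3 and 15.6% in PNX, and Itga1 took 19.7, 19.9 and 21.0% in sham and 16.8, 16.6 and 16.5% in PNX.

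The promoters of Itga5 and Itga1 are shown because these 2 beta1 partners differed in opposite directions in both deposits. Each run holds the 250 bases before and the 50 bases after the start, from RefSeq on GRCm38.p6, in lower case with matches of 4 motifs in capitals on either strand. The motifs searched were the letters TGANTCA for an AP-1 site and GAGGAAG for a purine-rich ETS site. The box of Sp1-type factors was searched as GGGCGG and the TATA box as TATAAA, and no matches overlapped in the 4 promoters printed here. Itga5 (minus strand, chr15:103366742-103367041) holds 2 Sp1-type boxes, both on the other strand, and Itga1 (minus strand, chr13:115101915-115102214) none of the 4 motifs.
Itga5: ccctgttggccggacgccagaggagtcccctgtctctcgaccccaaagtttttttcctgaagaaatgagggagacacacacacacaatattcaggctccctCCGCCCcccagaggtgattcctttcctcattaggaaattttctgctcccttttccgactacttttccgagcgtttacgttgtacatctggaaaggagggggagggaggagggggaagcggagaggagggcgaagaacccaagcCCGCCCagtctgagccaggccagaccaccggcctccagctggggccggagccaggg
Itga1: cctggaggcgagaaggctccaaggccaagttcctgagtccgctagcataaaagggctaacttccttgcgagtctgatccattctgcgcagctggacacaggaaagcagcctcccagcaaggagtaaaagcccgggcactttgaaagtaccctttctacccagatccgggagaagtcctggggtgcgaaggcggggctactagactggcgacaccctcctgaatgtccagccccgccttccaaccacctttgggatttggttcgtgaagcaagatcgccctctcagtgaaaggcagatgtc
Among all 32851 promoters of this length, 35.7% hold the Sp1-type box, 13.6% the ETS site, 7.81% the AP-1 site and 13.6% the TATA box. Of the 38 chains, 24 had a promoter in the table, with 27 promoters, and 13 of these 27 hold the Sp1-type box, 8 the ETS site, 3 the AP-1 site and 0 the TATA box. Not matched were Itgad, Itgae, Itgal, Itgb2, Itga6, Itga7, Itgb3, Itgb4, Lama1, Lama3, Lama4, Lamc1 and Lamc3, among others. A match is a match of letters only.

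Itga8, which pairs with beta1 to bind RGD ligands such as nephronectin and is known from fibroblasts and smooth muscle, was at 206, 198 and 205 CPM in sham and at 155, 156 and 80.7 CPM in PNX. No library overlapped, but the later deposit differed far more, with a log2 ratio of -1.32 against -0.41. The blocked log2 fold change was -0.86 (SE 0.19, edgeR adjusted p = 0.0195). This edgeR adjusted p ran from 0.0172 to 0.066 in the blocked fits that left out 1 library. Npnt, the nephronectin gene and the most abundant of the fibroblast markers here, was at 2283, 2327 and 2200 CPM in sham and at 2425, 2416 and 1251 CPM in PNX, lower in the same library. Other fibroblast markers were split there. PNX replicate 3 was the highest library for Col1a1 (626, 632 and 1020 CPM in PNX) and for Dcn (386, 384 and 816 CPM in PNX), as for Col1a2, Lum, Fbln1 and Pi16. It was the lowest for Pdgfra (337, 335 and 192 CPM in PNX), Tcf21 (40.7, 43.3 and 13.4 CPM) and Ces1d (153, 153 and 87.1 CPM). Summed pericyte and smooth muscle markers were also lowest in that library, at 438 CPM against 612 and 608 in the other PNX libraries and 469 to 607 in sham. The part of such cells in the Itga8 values was not tested. An annotated antisense gene shares exon sequence with Itga8, and use of strand in counting was not stated, so its values are uncertain to that extent.

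Of the other RGD receptor subunits, Itgav was at 35.0, 35.3 and 34.0 CPM in sham and at 44.2, 42.6 and 44.9 CPM in PNX, with no overlap. Its blocked log2 fold change was 0.35 (SE 0.09, edgeR adjusted p = 0.0284), and it was 0.34 (edgeR adjusted p = 0.0174) with 6 libraries. DESeq2 with the block gave an adjusted p of 0.0874 for Itgav. Itgb8, a beta partner of alphav known for activating latent TGF-beta, was close to the detection limit, with 28, 18 and 37 counts in sham and 76, 79 and 65 counts in PNX, or 0.347, 0.251 and 1.1 CPM and 1.02, 1.20 and 2.18 CPM. Groups overlapped because the later sham library was above PNX replicate 1. Its blocked log2 fold change was 1.46 (SE 0.31, edgeR adjusted p = 0.0163), the largest among the matrix subunits. Itgb6, the epithelial partner of alphav, was at 13.5, 13 and 6 CPM in sham and at 18.5, 16.3 and 2.88 CPM in PNX, so its direction depended on the deposit. Itgb3, Itgb5 and Itga2b, the last a platelet subunit, had blocked log2 fold changes of 0.25, -0.17 and 0.04 and edgeR adjusted p of 0.0814, 0.191 and 0.878. The log2 ratios of Itga2b in the deposits were 0.35 and -0.30. Of 10 platelet and megakaryocyte markers, Pf4 alone passed in the blocked fit, as higher (background 3.89%). Pf4 was at 6.15, 5.5 and 7.96 CPM in sham and at 15.2, 14.4 and 13.9 CPM in PNX. At the wider threshold 2 of the 10 were higher (background 11.5%) and 0 lower (background 10.1%), and their median log2 fold change was -0.04. The part of platelets in the Itga2b values was not tested.

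The subunits of laminin receptors were Itga3, Itga6, Itga7 and Itgb4, which pairs with alpha6 in hemidesmosomes. Per length, Itga3 and Itga6 were close in sham, with mean levels of 105 and 104 TPM, and Itga6 was the higher in replicates 1 and 2. Itga3 was at 227, 229 and 179 CPM in sham and at 190, 187 and 188 CPM in PNX. The PNX values lay inside the sham range, with log2 ratios of -0.30 and 0.10 in the deposits. Itga6, a subunit of ECs and epithelium, ran at 649, 648 and 341 CPM in sham and 540, 544 and 378 in PNX. These CPM sum 2 transcripts with nearly equal counts, unlike those of Itga3. Itga6 followed the same deposit pattern. Itga7, known from muscle, and Itgb4 had all PNX libraries above all sham libraries, with blocked log2 fold changes of 0.60 (SE 0.14) and 0.51 (SE 0.13) and edgeR adjusted p of 0.0234 and 0.032. For Itgb4 the blocked edgeR adjusted p ran from 0.0303 to 0.0543 when 1 library was left out, and DESeq2 with the block gave Itga7 an adjusted p of 0.0713. Itga7 shares exon sequence with Mettl7b on the other strand, which leaves its values uncertain to that extent.

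Itga4 and Itga9 bind ligands such as VCAM-1, fibronectin and tenascin, and Itga4 is also carried by lymphocytes. Itga4 was at 62.1, 61.6 and 151 CPM in sham and at 45.6, 44.6 and 102 CPM in PNX. Its later-deposit level was 2.39 times the earlier one in sham and 2.29 times in PNX. These ratios lie within the ranges of the leukocyte subunits given below, although Itga4 is counted here with the matrix subunits. Within the deposits the log2 ratios were -0.48 and -0.54, and the blocked log2 fold change was -0.51 (SE 0.08, edgeR adjusted p = 0.00481), against -0.52 (SE 0.57, edgeR adjusted p = 0.796) without the block. Itga4 shares exon sequence with Cerkl on the other strand. Itga9 had a blocked log2 fold change of 0.25 (SE 0.08, edgeR adjusted p = 0.0677). Itgbl1 was at 0.782, 0.851 and 1.25 CPM in sham and at 1.37, 1.40 and 1.37 CPM in PNX, with a blocked log2 fold change of 0.51 (SE 0.27, edgeR adjusted p = 0.228).

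**Figure D4:**
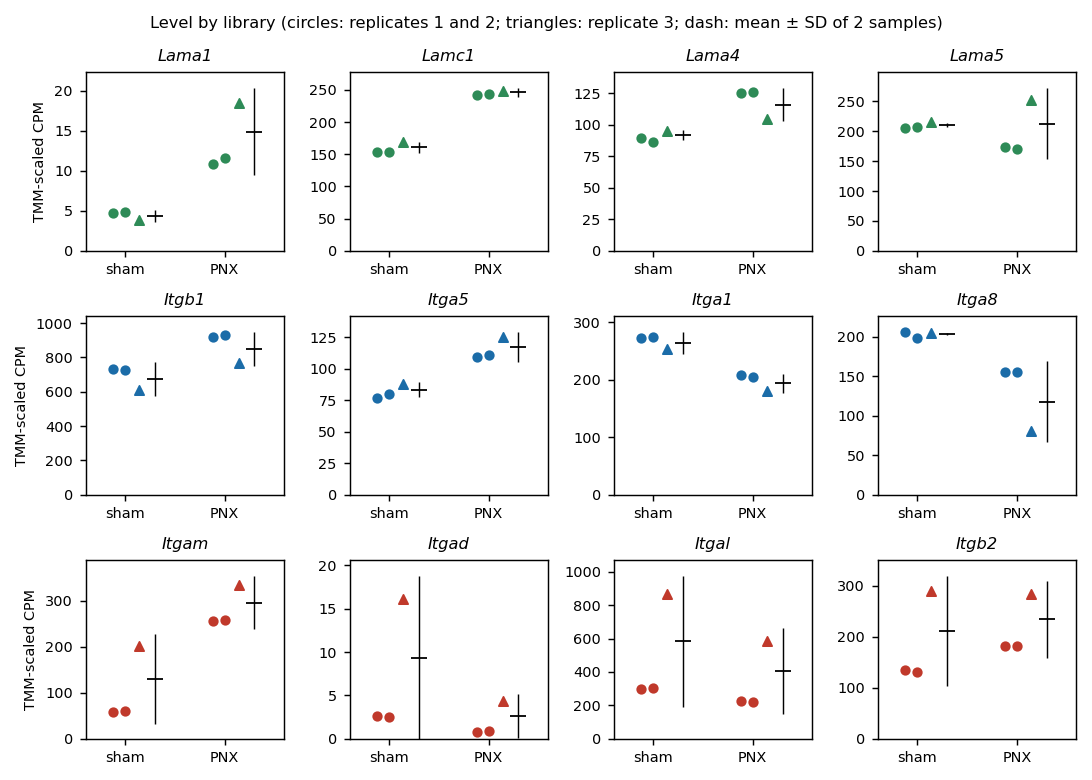
TMM-scaled CPM (vertical axis, from 0) of 12 chains in each library of the sham and PNX groups, with circles for replicates 1 and 2, triangles for replicate 3 and a dash with a bar for the mean ± SD of the 2 samples. Lamc1, Itga5 and Itga1 separate the groups in both deposits, whereas Itgad, Itgal and Itgb2 differ more between deposits than between groups.

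The leukocyte subunits were all higher in the later deposit. In sham the 7 had later-deposit levels of 2.12 to 6.14 times those of the earlier deposit, and in PNX of 1.32 to 5.16 times. Ptprc, which encodes the pan-leukocyte antigen CD45, was at 471, 469 and 986 CPM in sham and at 466, 475 and 782 CPM in PNX. It differed more between deposits than between groups, as most of the subunits did, with a blocked log2 fold change of -0.17 (SE 0.11, edgeR adjusted p = 0.344).

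Itgam, the CD11b subunit of myeloid cells and NK cells, was at 58.0, 61.0 and 201 CPM in sham and at 256, 258 and 334 CPM in PNX. It was the only leukocyte subunit whose PNX libraries all lay above the sham libraries. The earlier deposit gave a log2 ratio of 2.09 and the later one 0.76. The log2 fold change was 1.42 (SE 0.27, edgeR adjusted p = 0.0109) with the block and 1.19 (SE 0.58, edgeR adjusted p = 0.512) without it. The blocked edgeR adjusted p ran from 0.00982 to 0.0478 when 1 library was left out, and DESeq2 with the block gave an adjusted p of 0.128 for Itgam. Its position is chr7:128062640-128118491 on the plus strand.

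Itgad, the CD11d subunit of some tissue macrophages, was at 2.67, 2.46 and 16.1 CPM in sham and at 0.821, 0.915 and 4.39 CPM in PNX. The groups overlapped, since the later PNX library lay above the earlier sham libraries, and within each deposit PNX was lower. The blocked log2 fold change was -1.72 (SE 0.16, edgeR adjusted p = 0.000497), with log2 ratios of -1.60 and -1.85 in the deposits. Without the block it was -1.86 (SE 1.15, edgeR adjusted p = 0.613), and that value went to -0.02 without sham replicate 3 and to -3.41 without PNX replicate 3. Itgad lies at chr7:128154376-128223816, next to Itgax and Itgam, and shares exon sequence with Cox6a2 and 4931431B13Rik on the other strand, so its values are uncertain where counting did not use strand.

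Itgal, the CD11a subunit of lymphocytes and other leukocytes, was at 298, 307 and 866 CPM in sham and at 227, 220 and 583 CPM in PNX. These CPM sum 4 transcripts with nearly the same count in each library, so they are not comparable with those of Itgb2. Groups overlapped across deposits, and within them the log2 ratios were -0.46 and -0.54. The blocked log2 fold change was -0.50 (SE 0.10, edgeR adjusted p = 0.0117). Itgb2, the common beta subunit, was at 135, 131 and 290 CPM in sham and at 181, 181 and 284 CPM in PNX, with log2 ratios of 0.42 and 0.00 and an edgeR adjusted p of 0.242 with the block. Itgax, the CD11c subunit of dendritic cells and alveolar macrophages, Itgae, the CD103 subunit, and its partner Itgb7 had blocked log2 fold changes of 0.02, 0.05 and -0.26 and edgeR adjusted p of 0.892, 0.759 and 0.0906. The log2 ratios of Itgax in the deposits were 0.11 and -0.07.

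Of the TPM of the 4 beta2-pairing alpha subunits, Itgam took 14.6, 14.9 and 18.0% in sham and 43.8, 44.4 and 31.4% in PNX. Itgal took 33.5, 33.6 and 34.8% in sham and 17.4, 17.0 and 24.6% in PNX. The groups did not overlap in either share. The alpha subunits summed to 108, 111 and 297 TPM in sham and to 154, 154 and 288 in PNX, and Itgb2 was at 119, 116 and 252 TPM and at 157, 156 and 252 TPM. Alpha and beta thus stayed close to one another in every library, with a ratio of 0.905 to 1.18. Per TPM of Ptprc, Itgam was at 0.217, 0.230 and 0.360 in sham and at 0.972, 0.962 and 0.752 in PNX.

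**Figure D5:**
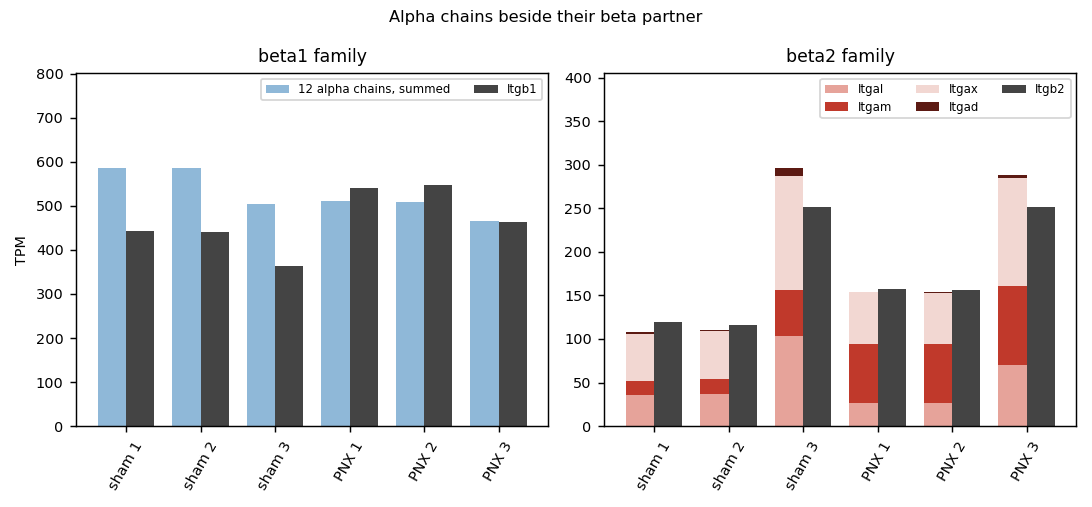
TPM (vertical axis, from 0) in each library of the alpha subunits beside their beta partner, for beta1 (left, 12 alpha subunits summed) and beta2 (right, 4 alpha subunits stacked). The alpha sum exceeds Itgb1 in the 3 sham libraries (504 to 587 against 363 to 444 TPM) and lies below it in PNX replicates 1 and 2 (512 against 540 and 510 against 548 TPM), and the Itgam band is wider in the PNX libraries.

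The promoters of Itgam and Itgax are shown because these adjacent genes on chromosome 7 differed in their values after PNX, with motif matches in capitals as above. Itgam (plus strand, chr7:128062390-128062689) holds the ETS site 2 times, once on each strand, and 1 Sp1-type box on the other strand. Itgax (plus strand, chr7:128129300-128129599) holds 1 AP-1 site.
Itgam: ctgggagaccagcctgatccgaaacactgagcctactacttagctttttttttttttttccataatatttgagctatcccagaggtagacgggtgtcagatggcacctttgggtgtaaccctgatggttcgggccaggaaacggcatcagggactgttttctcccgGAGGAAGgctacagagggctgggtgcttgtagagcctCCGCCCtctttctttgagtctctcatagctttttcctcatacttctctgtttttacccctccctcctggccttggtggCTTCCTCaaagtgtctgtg
Itgax: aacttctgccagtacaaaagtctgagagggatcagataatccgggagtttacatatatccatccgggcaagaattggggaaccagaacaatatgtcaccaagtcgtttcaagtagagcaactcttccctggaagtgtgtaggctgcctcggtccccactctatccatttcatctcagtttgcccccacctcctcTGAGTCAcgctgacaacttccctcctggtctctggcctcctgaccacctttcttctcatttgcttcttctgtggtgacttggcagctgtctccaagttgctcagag
A difference in level between these genes was not tested against their promoters.

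Leukocyte markers moved alongside in part. In the blocked fit 4 of 13 macrophage and monocyte markers rose (C1qa, C1qb, C1qc and Marco, background 3.89% of genes tested) and 0 fell (background 1.23%). At the wider threshold 9 were higher (background 11.5%) and 1, Ear2, was lower (background 10.1%), with a log2 fold change of -0.47 (SE 0.12). C1qa, a complement gene of tissue macrophages, was at 11.5, 11.1 and 21.2 CPM in sham and at 78.4, 80.4 and 93.0 CPM in PNX, with a log2 fold change of 2.49 (SE 0.15). Summed over the 13, the level was 2433 to 4545 CPM in sham and 3269 to 4384 in PNX, and Lyz2, the most abundant, had a log2 fold change of -0.01 (SE 0.14). Of 9 neutrophil markers, Mmp8 alone passed, as higher after PNX (background 3.89%). Of 10 T and NK cell markers, 0 passed, 9 were lower after PNX in both deposits (background 39.3%) and 5 were lower at the wider threshold (background 10.1%). Lck was at 29.2, 27.9 and 47.9 CPM in sham and at 16.9, 18.4 and 32.8 CPM in PNX. All 6 B cell markers were lower at the wider threshold (background 10.1%), none past the minimum fold change, with sums of 160 to 206 CPM in sham and 97.4 to 109 in PNX. Of 8 dendritic cell markers Ccr7 and Siglech fell (background 1.23%), and no marker of any of these 5 lists was at 0 in a library. Of 8 mast cell markers 5 rose in the blocked fit (Mcpt4, Cma1, Tpsb2, Tpsab1 and Mrgprb1, background 3.89%) and 0 fell (background 1.23%). Levels were low, with sums of 7.56 to 13.4 CPM in sham and 15.7 to 31.2 in PNX, and Tpsab1 and Mrgprb1 were at 0 in at least 1 sham library. At the wider threshold 6 mast cell markers were higher (background 11.5%) and 1, Ms4a2, was lower (background 10.1%), with a log2 fold change of -0.70 (SE 0.17). The part of all these cells in the values of Itgam, Itgad, Itgal and Itga4 was not tested.

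Beside the receptors stand the proteins listed for the integrin adhesion complex. The list includes linkers to the cytoskeleton, signalling proteins and the collagen receptors Ddr1 and Ddr2, and 29 of 30 listed were measured. None of the 29 passed in the blocked fit (background 3.89% higher and 1.23% lower), with 2 higher and 4 lower at the wider threshold (background 11.5% and 10.1%), and their median log2 fold change was 0.01. Flna, the actin cross-linker filamin A and the most abundant of them, was at 1103, 1114 and 1862 CPM in sham and at 1342, 1318 and 1890 CPM in PNX, a blocked log2 fold change of 0.14 (SE 0.12).

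Other proteins of the basement membrane formed the next list. Of 26 measured, 7 rose in the blocked fit (background 3.89%) and 0 fell (background 1.23%), with a median log2 fold change of 0.40. All PNX libraries lay above all sham libraries for 12 (background 18.8%) and below them for 3 (background 17.9%). The 7 were Nid2, which links laminin to collagen IV, the collagen chains Col4a1, Col15a1 and Col18a1, and Fbln2, Fras1 and Sparc. Col15a1 was at 11.5, 11.5 and 20.4 CPM in sham and at 47.5, 49.6 and 81.6 CPM in PNX, a blocked log2 fold change of 2.04 (SE 0.09). Col4a1, the main collagen of vascular basement membranes, was at 937, 952 and 730 CPM in sham and at 1704, 1740 and 1643 CPM in PNX, a blocked log2 fold change of 1.02 (SE 0.13). Nid2 had a blocked log2 fold change of 1.24 (SE 0.13) and Sparc 1.34 (SE 0.16).

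Ligands of integrins outside the basement membrane followed, with 6 of 24 tested higher (background 3.89%) and 0 lower (background 1.23%) in the blocked fit (29 were listed and 5 did not pass the filter). Fn1, the fibronectin bound by Itga5, was at 2567, 2592 and 5062 CPM in sham and at 11907, 12047 and 15725 CPM in PNX, with a blocked log2 fold change of 1.93 (SE 0.19). Tnc, the tenascin C bound by Itga9, was at 19.3, 20.8 and 13.1 CPM in sham and at 120, 119 and 138 CPM in PNX, with a blocked log2 fold change of 2.96 (SE 0.19). For both genes every PNX library lay above every sham library. Spp1, Fbn1, Fbn2 and Thbs2 were the other 4, with blocked log2 fold changes of 1.25 to 3.50. Over the list the median log2 fold change was 0.15.

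Some genes of other matrix-making cells moved with these. Of 12 fibroblast markers 5 rose in the blocked fit (Col1a1, Col1a2, Dcn, Lum and Mfap5, background 3.89%) and 0 fell (background 1.23%). Summed levels were 3387 to 3460 CPM in sham and 4669 to 4992 in PNX, and Col1a1 was at 123, 126 and 182 CPM in sham and at 626, 632 and 1020 CPM in PNX. At the wider threshold 8 were higher (background 11.5%) and 1, Pdgfra, was lower (background 10.1%), with a log2 fold change of -0.49 (SE 0.13). In both deposits 8 were higher (background 36%) and 3 lower (background 39.3%). Of 7 mesothelial markers 4 rose (Msln, Upk3b, Lrrn4 and Wt1, background 3.89%), with sums of 255 to 529 CPM and 451 to 1080 CPM, the highest in the later deposit of each group. Rgs5 was the only one of 11 pericyte and smooth muscle markers to rise (background 3.89%). In the other direction, 2 of 8 alveolar type 1, 3 of 9 alveolar type 2 and 6 of 9 airway markers fell (background 1.23%). Of the 12 endothelial markers, 0 passed in the blocked fit, 2 were lower at the wider threshold (background 10.1%) and 8 were lower after PNX in both deposits (background 39.3%). Eng was at 3046, 3083 and 2491 CPM in sham and at 2110, 2099 and 1931 CPM in PNX. The part of these cells in the laminin and matrix integrin values was not tested.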

How the data were processed

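RNA of CD31-selected lung ECs was measured in 3 sham and 3 PNX libraries, grouped from the sample labels. The authors prepared stranded mRNA libraries, aligned paired-end reads to mm10 with STAR (per the submitters' processing notes), and deposited a count, FPKM and TPM for each of 33068 RefSeq transcripts per library. Not given in the sources used here were the counting rule, its use of strand, how reads shared by transcripts were handled, and the release of the annotation. The FPKM values that the authors deposited were not used, and the TPM values that the authors deposited served for levels between genes only. The deposited counts of a symbol were summed, which can count a shared read more than once for the 9 chains with several transcripts. Itgam had the same count on both of its transcripts in every library. In sham replicate 1 Itgal had 6007 on each of its 4. Itga6, Itgb4, Itgb5, Itgb6 and Lamb3 had nearly equal counts on both of theirs. The summed CPM of these chains is too high beside chains with 1 transcript where shared reads were counted on each. Such CPM compares libraries rather than chains.

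Group differences were fitted in R 4.3.3 with edgeR 4.0.16 (TMM, filterByExpr, glmQLFit, glmQLFTest, Benjamini-Hochberg over all genes), with DESeq2 1.42.0 and limma 3.58.1 as alternatives, tested first on simulated counts. The SE of a log2 fold change is its size over the square root of F. A call needed an adjusted p under 0.01 together with a log2 fold change over 1 in size, as in the study. The labels pair the groups by deposit: across 13199 genes with at least 50 counts, which are not independent, later-minus-earlier differences of sham and PNX had a Pearson's r of 0.786 and a Spearman's rho of 0.776. CPM uses TMM-scaled library sizes, and counting error is smallest in the deepest libraries, those of the earlier deposit. Positions are from GENCODE vM21 on GRCm38. As with Itga4, Itga7, Itga8 and Itgad, exon sequence is shared with an annotated gene on the other strand by Itgb4, Itgav, Lama2, Lama3 and Lamc3. On the same strand it is shared by Itgam, Itga1 and Itga10. The values of these chains are uncertain to that extent.

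The members and the lists of markers and partners were chosen with earlier results of these data known. Values in every library were given for chains called in edgeR, the chain with the highest sham TPM in each class, and the 5 highest and 5 lowest log2 fold changes. Those of Itga5, Itga6, Itgav, Itgb6 and Pecam1 were added after values were seen, as were those of single list genes. Other list genes are named where called in the blocked fit or most abundant. Alternatives were other tools, scalings, filters, transcripts, deposits and left-out libraries. The human and mutant mouse experiments of the study were not analysed here, and 1 chain that enters the counts and medians is not reported here by itself.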

Additional observations from a re-analysis of the deposited data

How the results depend on the processing

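Without a replicate block, edgeR called 0 genes and 0 chains under every scaling, filter and transcript choice tried on 4 samples, as did limma-voom, and 409 genes and 0 chains with 6 libraries. The replicate block gave 849 genes and 2 chains (Lama1 and Itgad). With 6 libraries under a block, 920 genes and 2 chains were called. There the block was the replicate number rather than the deposit, so the near-identical replicates 1 and 2 counted as separate pairs, a pairing that the labels do not state. This holds for the 6-library fit under the block below too. Under the block, DESeq2 size factors gave 624 genes and 1 chain (Itgad), upper-quartile scaling 646 and 2, library size alone 629 and 2, DESeq2 itself 813 and 2, and use of only the highest transcript 727 and 2. DESeq2 called 587 genes and 1 chain on 4 samples and 927 and 1 on 6 libraries. The earlier deposit alone, with replicates 1 and 2 as separate replicates, gave 1203 genes and 4 chains (Lama1, Itgad, Itgam and Itgb8), a fit whose spread is that of near-identical libraries. The blocked fit at an adjusted p under 0.05 gave 3584 genes and 16 chains. Leaving out 1 library, 0 to 2 genes and 0 chains were called without the block, and 0 to 517 genes and 0 to 1 chain with 6 libraries. Under the block, 671 genes and 2 chains were called without sham replicate 1, 668 and 2 without sham replicate 2, 485 and 1 (Itgad) without PNX replicate 1, and 863 and 3 (Lama1, Itgad and Itgam) without PNX replicate 2. The blocked fits with another scaling, tool or transcript, that at 0.05, the 6-library fits that leave out 1 library and the fit of the earlier deposit alone were chosen after the data were seen. Without replicate 3 of a group, that group holds 1 sample, assumed to vary like the other.

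The median log2 fold change of the leukocyte subunits was 0.09 and that of the matrix subunits 0.27 in the earlier deposit alone. Leaving out 1 library, they ran from -0.72 (without PNX replicate 3) to 0.74 (without sham replicate 3) and from 0.15 to 0.26, with 0.18 without sham replicate 1 and 0.27 without sham replicate 2 under the block. Of 37 chains, 23 kept their direction under all 34 settings, Lama1, Lamc1, Itga1, Itga5, Itgam and Itgad among them, and 14 did not. Itgax (-0.01 as reported) was 0.01 with 6 libraries, by DESeq2 on them and by limma-voom, 0.02 with the replicate block and with DESeq2 size factors, DESeq2 or the highest transcript under it, 0.01 with upper-quartile scaling and 0.03 with library size alone under it, 0.06 with 6 libraries under it and 0.14 in the earlier deposit. Itga2b (-0.02) was in the same order 0.10, 0.09, 0.12, 0.04, 0.04, 0.03, 0.05, 0.03, 0.05, 0.16 and 0.38. Itgb6 (0.07) was -0.02 by limma-voom and -0.16 with the block, and -0.16, -0.27, -0.09, -0.17 and -0.16 with DESeq2 size factors, DESeq2, the highest transcript, upper-quartile scaling and library size alone under it, and -0.14, -0.18, -0.23 and -0.11 under it without sham replicate 1, sham replicate 2, PNX replicate 1 and PNX replicate 2. Lama5 (0.01) was -0.07 with 6 libraries, -0.08 by DESeq2 on them, -0.02 with the block and with DESeq2 size factors or DESeq2 under it, -0.01 with the highest transcript or library size alone, -0.03 with upper-quartile scaling, -0.10 with 6 libraries under the block and -0.26 in the earlier deposit. Itga10 (0.22) was -0.14 in the earlier deposit. The cause was not tested.

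Leaving out 1 library turned the direction of these 14 chains in at least 1 fit, with log2 fold changes of -0.72 to 0.83 for Itgae, -1.39 to 0.41 for Itgal, -0.63 to 0.74 for Itgax, -0.22 to 0.80 for Itgb2, -1.01 to 0.43 for Itgb7, -0.11 to 0.28 for Itga10, -0.04 to 0.56 for Itga11, -0.50 to 0.12 for Itga6, -0.06 to 0.41 for Itga2b, -0.36 to 0.83 for Itgb6, -1.24 to 0.24 for Itga4, -0.76 to 0.23 for Lama3, -0.30 to 0.04 for Lama5 and -0.76 to 0.16 for Lamb3. The shares of the laminin alpha and beta chains moved by more than the spread between samples mainly without replicate 3 of either group. Chains with few counts, such as Itgb8 with 18 to 79 per library, are limited by depth.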
